A study of Mus musculus with 8 samples.

Results

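Interleukin 1 and interleukin 33 act through related receptors, and 10 genes of these pathways were followed across 4 culture conditions of mouse eosinophils. The genes were the ligands Il1a and Il1b, the receptor antagonist Il1rn, the receptor chains Il1rl1, Il1rap and Il18r1, the decoy receptor Il1r2, and the kinase family members Irak2, Irak3 and Irak4. They were chosen by name as members of the pathway, with earlier results of these data known. The rows of the count table whose Ensembl gene identifier carries each symbol were used. All 10 of the 10 genes had a row among 15917 genes, and all 10 passed the filter on low counts, which left 15913 genes to test.

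Eosinophils came from the blood of C57BL/6 mice. The protocol names the IL-5 transgenic line NJ.1638 for all 4 groups, whereas the genotype label of every sample reads WT. Cells were enriched by removing CD90-positive and B220-positive cells, had a purity above 97% by stain, and were cultured for 18 h before mRNA sequencing. In the first experiment CN received no cytokine and E1 received IFN-γ and TNF-α at 15 ng/mL. In the second experiment E0 received IL-5 at 10 ng/mL, and E2 received IL-5, GM-CSF and IL-4 at 10 ng/mL each with IL-33 at 30 ng/mL. Each group had 2 libraries. The labels do not say how the 2 libraries of a group were obtained. Their sex-linked transcripts differ in every group, so they hold RNA of different animals, and p-values measure a spread between libraries that includes sex.

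In this pathway IL-1α and IL-1β bind the receptor IL-1R1, and IL-33 binds ST2, the product of Il1rl1. Both receptors pair with the shared accessory chain IL-1RAcP, the product of Il1rap, and signal through the adaptor MyD88 and the kinases IRAK4, IRAK1 and IRAK2 to NF-κB and MAP kinases. The pathway carries its own brakes: IL-1Ra, from Il1rn, occupies the receptor without signalling, IL-1R2 captures ligand without signalling, and IRAK-M, from Irak3, is best known as an inhibitor of the signalling complex. Eosinophils are known to carry ST2 and to respond to IL-33.

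Total counts were 60809057 to 95065752 per library, and Spearman's correlation between the 2 libraries of a group was 0.9921 to 0.9946 across genes. Y-linked transcripts were found in replicate 1 of each group and Xist in replicate 2. All 12 listed eosinophil markers reached 10 CPM (counts per 1000000 counts of the library) in at least 1 group, Siglecf at 701 to 1004 CPM and Ccr3 at 1191 to 2590 CPM over the libraries. Their summed level was 7651 to 7955 CPM in CN, 5987 to 6915 in E1, 6987 to 7073 in E0 and 4566 to 4624 in E2. Levels below are CPM scaled by TMM (trimmed mean of M values), which suit comparison of a gene between libraries, and 3 counts in a library equal 0.0316 to 0.0493 CPM. In bulk RNA, a change in the number of cells that express a gene cannot be told apart from a change in RNA per cell.

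With IFN-γ and TNF-α (E1 against CN), the ligands, the antagonist, Irak2 and Irak3 rose while the 4 receptor genes fell. With GM-CSF, IL-4 and IL-33 added to IL-5 (E2 against E0), Il1a, Il1b, Il1rn, Irak2 and Irak3 rose again, and 3 of the 4 receptor genes moved upward, with Il18r1 lower. In E1 against CN 5 of the 10 genes were called higher and 4 lower at an adjusted p below 0.05, against 9.19% of all tested genes higher and 8.08% lower. In E2 against E0 8 of the 10 were higher and 1 lower, against 17.0% higher and 18.5% lower over all genes. The median log2 fold change of the 10 genes was 0.30 in the first comparison and 0.74 in the second, beside -0.01 and -0.02 over all genes. Irak4 was the gene not called in either. The E2 mix adds 3 cytokines at once, and the effect of each cannot be told apart.

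**Figure D1:**
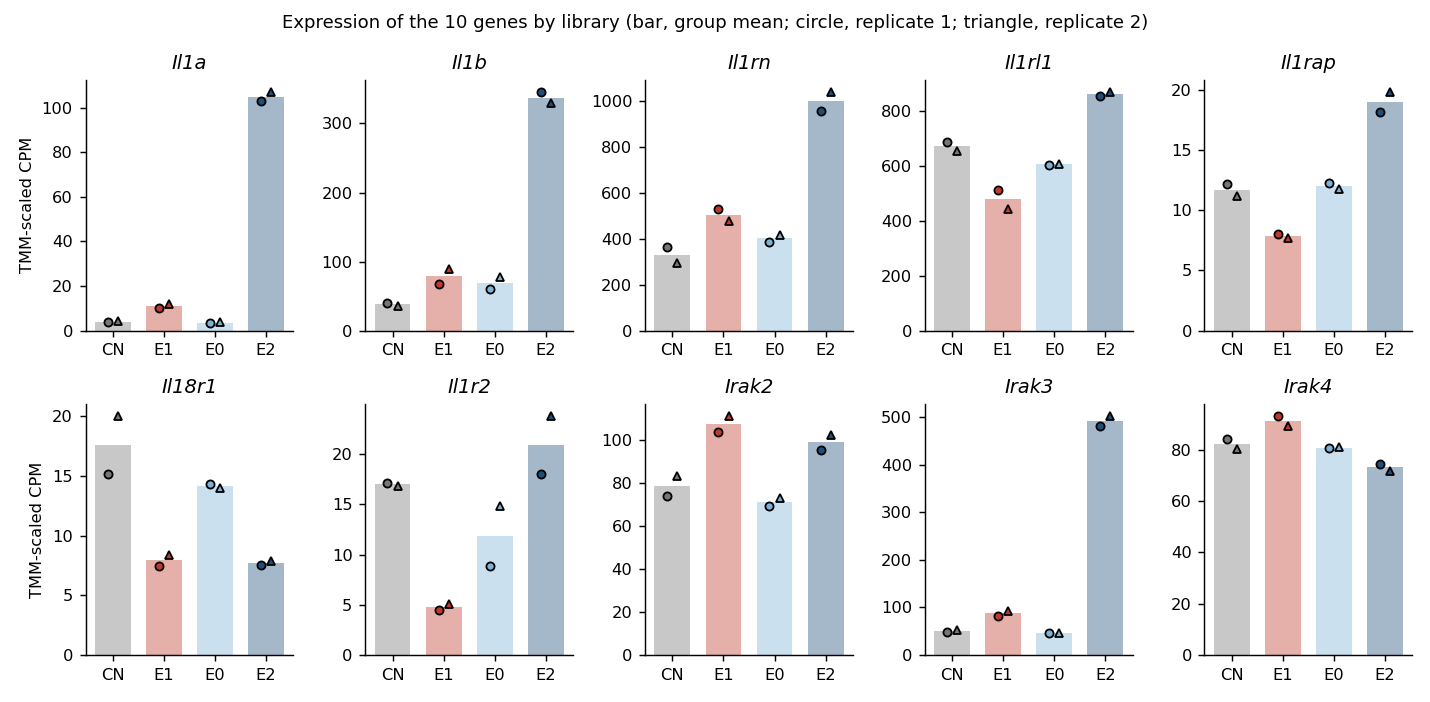
Level of each of the 10 genes (y axis, TMM-scaled CPM, a separate scale from 0 for each gene) in the 4 groups (x axis), with bars for group means, circles for replicate 1 and triangles for replicate 2. Il1a stands at 103 and 107 CPM in E2 and at 12.0 CPM or below elsewhere, whereas Irak4 stays between 71.6 and 93.2 CPM in all 8 libraries.

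Il1a (ENSMUSG00000027399) encodes IL-1α and lies on chromosome 2 from 129299610 to 129309972 on the minus strand (mm10). Its level was 3.73 and 4.39 CPM in CN, 10.3 and 12.0 in E1, 3.57 and 3.64 CPM in E0, and 103 and 107 in E2. Both E2 libraries stood far above the rest, both E1 libraries stood above CN, and no 2 groups overlapped in the order E2, E1, CN, E0. The change from E0 to E2 was 29.1-fold, a log2 fold change of 4.86 ± 0.13 (SE; adjusted p = 5.59e-07), and was the highest among the 10 genes. From CN to E1 it was 2.75-fold (1.46 ± 0.11; adjusted p = 6.15e-05). The annotated transcript Gm14023 overlaps Il1a on the opposite strand and held 163 to 2438 counts, with a log2 fold change of 3.42 in E2 against E0. The strand setting of the counting is not given in the sources used here, so reads of such overlapping genes cannot be told apart with certainty.

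Il1b (ENSMUSG00000027398), the gene of IL-1β, lies close by on chromosome 2 from 129364570 to 129371139, also on the minus strand. It stood at 39.6 and 36.0 CPM in CN, 67.5 and 89.8 in E1, 60.3 and 78.0 CPM in E0, and 346 and 329 in E2. The E2 libraries were again highest, CN was lowest, and the E1 and E0 libraries overlapped. From E0 to E2 the level rose 4.88-fold (log2 fold change 2.29 ± 0.16; adjusted p = 3.08e-05), and from CN to E1 2.08-fold (1.05 ± 0.15; adjusted p = 0.00192). Il1bos, an antisense transcript over Il1b, held 215 to 823 counts and had a log2 fold change of 1.23 in E2 against E0.

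The bases before the start sites are shown for the ligand genes because Il1a and Il1b lie near each other and both rose in both mixes, and for the antagonist because it rose with them. Sequences are the 250 bases before a RefSeq start site (GRCm38.p6), 5′ to 3′ on the gene's strand, in lower case, with matches to the motifs searched in capitals. The windows are chr2:129309973-129310222 for Il1a, chr2:129371140-129371389 for Il1b, both minus strand, and chr2:24345041-24345290 for the second of 3 Il1rn starts, plus strand. The third Il1rn window overlaps the second and holds the same match, and the first is described below without its sequence.
Il1a: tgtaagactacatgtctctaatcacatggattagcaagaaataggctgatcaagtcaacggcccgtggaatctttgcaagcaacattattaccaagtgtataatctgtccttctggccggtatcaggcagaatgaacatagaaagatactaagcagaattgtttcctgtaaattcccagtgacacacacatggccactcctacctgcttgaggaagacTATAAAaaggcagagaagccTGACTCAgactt
Il1b: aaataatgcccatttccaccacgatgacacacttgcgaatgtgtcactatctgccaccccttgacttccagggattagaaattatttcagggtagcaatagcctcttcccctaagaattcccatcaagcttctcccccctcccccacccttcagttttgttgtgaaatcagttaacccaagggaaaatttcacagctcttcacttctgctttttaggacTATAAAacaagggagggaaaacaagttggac
Il1rn: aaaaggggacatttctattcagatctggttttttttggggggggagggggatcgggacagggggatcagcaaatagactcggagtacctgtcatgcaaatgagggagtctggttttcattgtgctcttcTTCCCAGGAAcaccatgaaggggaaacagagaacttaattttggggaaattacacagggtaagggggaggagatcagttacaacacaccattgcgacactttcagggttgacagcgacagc
The motifs searched were TATAAA on the gene's strand, and on both strands the NF-κB consensus, TGANTCA (AP-1), TTCNNNGAA and TTCNNNNGAA (STAT types) and TTGCNNCAA (C/EBP). TTCNNNGAA and TTCNNNNGAA differ in spacing and cannot both match from the same first base. Both ligand windows hold TATAAA, at bases -32 to -27 before the Il1a start and -31 to -26 before the Il1b start. TATAAA occurs in 7.60% of 32817 promoter windows of the same length. Il1a also holds TGACTCA at -12 to -6, a match to TGANTCA, which 6.75% of windows hold. Il1rn holds TTCCCAGGAA at -121 to -112, a match to TTCNNNNGAA, which 5.85% of windows hold. The first Il1rn window holds TGAGTCA at -141 to -135, which, as in Il1a, matches TGANTCA. STAT-type matches were also found before receptor genes that were lower in E1 against CN. The first and second Il18r1 windows hold TTCTTTTGAA, a match to TTCNNNNGAA. TTCNNNGAA, which 7.01% of windows hold, matched TTCTGGGAA and TTCCCAGAA in the third Il18r1 window and TTCAAGGAA in the Il1r2 window. Whether any match bears on a change in level was not tested. None of the 16 windows of the 10 genes held the NF-κB consensus, which 7.25% of all windows hold, and this says only that those letters are not in these windows.

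Il1rn (ENSMUSG00000026981), the gene of the receptor antagonist, lies on chromosome 2 from 24336853 to 24351494 on the plus strand. Its level was 363 and 295 CPM in CN, 528 and 478 in E1, 388 and 416 CPM in E0, and 958 and 1042 in E2. The groups stood in the order E2, E1, E0, CN with no overlap. The rise was 2.49-fold in E2 against E0 (log2 fold change 1.31 ± 0.12; adjusted p = 0.000106) and 1.53-fold in E1 against CN (0.61 ± 0.11; adjusted p = 0.0068).

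Because levels of different genes compare only per length, counts per kilobase of exon, scaled to a sum of 1000000 per library (TPM), were used for the ratio of antagonist to ligand. On this scale Il1rn had a mean of 176 TPM in CN and 567 in E2, and Il1b 58.7 and 555. The Il1rn to Il1b ratio was 3.16 and 2.82 in CN, 2.70 and 1.84 in E1, 2.22 and 1.84 with IL-5 alone (E0), and 0.954 and 1.09 in E2. Antagonist RNA thus exceeded IL-1β RNA in the 6 libraries outside E2, and in E2 the ratio was close to 1 on this scale. The Il1rn to Il1a ratio was 34.7 and 24.0 in CN, 18.3 and 14.2 in E1, 38.7 and 40.8 with IL-5 alone (E0), and 3.32 and 3.47 in E2. Both ratios were lowest in E2, without overlap with any other group. The size of a ratio depends on the exon length taken: with the longest transcript in place of all exons the E2 means were 1.58 and 7.36, while the fold between groups does not depend on it.

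**Figure D2:**
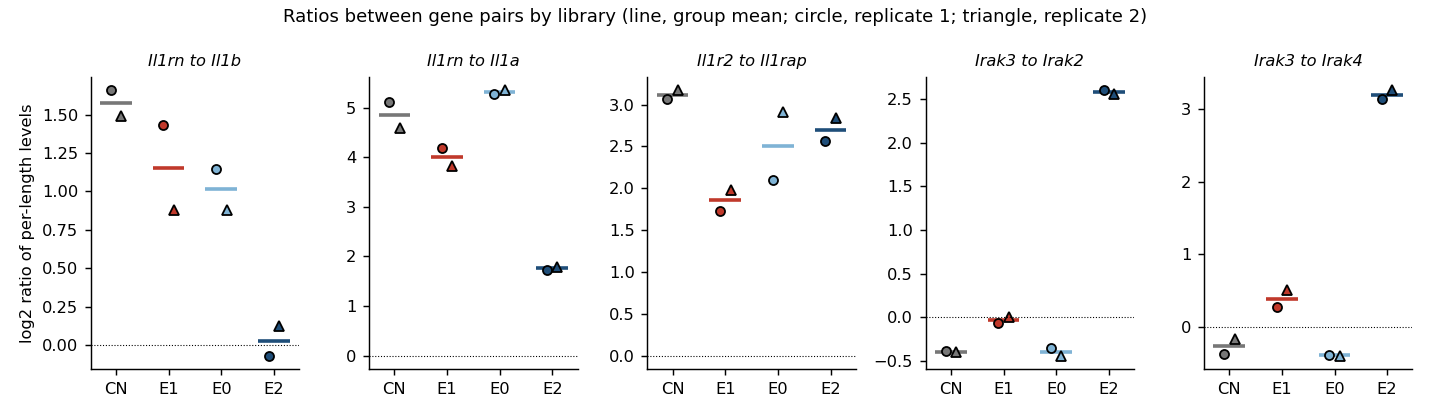
Ratios between pairs of the 10 genes (y axis, log2 of the ratio of per-length levels, 0 marks equal levels) for each library in the 4 groups (x axis), with a line for the group mean. In E2 the Il1rn to Il1b ratio lies near 0 and the Irak3 to Irak2 ratio, at 5.98 on the linear scale, lies far above the other groups.

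Il1rl1 (ENSMUSG00000026069), the gene of the IL-33 receptor ST2, lies on chromosome 1 from 40429570 to 40465415 on the plus strand. Per length it was among the well expressed genes, with means of 288 TPM in CN, 186 in E1, 275 in E0 and 393 in E2, and ranked 491 by mean among the 15730 genes with an exon length. In CPM it stood at 689 and 656 in CN, 512 and 444 in E1, 603 and 609 CPM in E0, and 855 and 871 in E2. The groups did not overlap, with E2 highest and E1 lowest. These counts are per gene and do not tell the transcripts of Il1rl1 apart. The IL-33 receptor gene fell 1.41-fold in E1 against CN (log2 fold change -0.49 ± 0.09; adjusted p = 0.0055) and rose 1.42-fold in E2 against E0 (0.51 ± 0.09; adjusted p = 0.00283), so it was highest in the cells that were given IL-33.

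Il1rap (ENSMUSG00000022514), the accessory chain that both IL-1 and IL-33 receptors need, lies on chromosome 16 from 26581704 to 26730117 on the plus strand. It was far less abundant than Il1rl1, with means of 3.03 TPM in CN, 1.86 in E1, 3.31 in E0 and 5.25 in E2. Its levels were 12.1 and 11.2 CPM in CN, 8.04 and 7.70 in E1, 12.3 and 11.8 CPM in E0, and 18.2 and 19.9 in E2. It moved in the same directions as Il1rl1, with E0 and CN overlapping. The log2 fold change was -0.57 ± 0.10 in E1 against CN (adjusted p = 0.00551) and 0.66 ± 0.10 in E2 against E0 (adjusted p = 0.00152). Gm20319, an antisense transcript over Il1rap, held 68 to 186 counts and had log2 fold changes of -1.08 and 0.39, the second not called.

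Il18r1 (ENSMUSG00000026070), the ligand-binding chain for IL-18, lies on chromosome 1 from 40465552 to 40500854, directly after Il1rl1 on the same strand. It stood at 15.2 and 20.0 CPM in CN, 7.46 and 8.37 in E1, 14.3 and 14.0 CPM in E0, and 7.52 and 7.87 in E2. Both stimulated groups were low and overlapped each other, and both control groups were high. The fall was 2.22-fold in E1 against CN (log2 fold change -1.15 ± 0.14; adjusted p = 0.000803) and in E2 against E0 the log2 fold change was -0.88 ± 0.14 (adjusted p = 0.00217). Il18r1 was the gene of the 10 that fell in both comparisons.

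Il1r2 (ENSMUSG00000026073), the decoy receptor, lies on chromosome 1 from 40074079 to 40125231 on the plus strand. Its levels were 17.1 and 16.9 CPM in CN, 4.47 and 5.11 in E1, 8.85 and 14.8 CPM in E0, and 18.1 and 23.8 in E2. E1 stood below every other group without overlap, with the lower E0 library nearest to it. The 2 E0 libraries lay further apart than those of other groups. From CN to E1 it fell 3.55-fold (log2 fold change -1.83 ± 0.24; adjusted p = 0.00106), the largest fall among the 10 genes. The change in E2 against E0 was 0.82 ± 0.23 (adjusted p = 0.025). That call was lost without E0 replicate 1 (0.50; adjusted p = 0.094) and without E2 replicate 2 (0.61; adjusted p = 0.164).

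Neutrophils also express Il1r2, so the neutrophil marker list stands beside this gene. Of 13 markers measured, 11 reached 10 CPM, none was at 0 in every library, and their sum was 3080 to 3548 CPM in CN, 1639 to 2143 in E1, 3132 to 3900 in E0 and 1116 to 1542 in E2. Csf3r, the G-CSF receptor, was at 432 and 400 CPM in CN, 32.7 and 27.6 in E1, 201 and 355 CPM in E0, and 92.5 and 118 in E2. Csf3r was low in E1 as Il1r2 was, was higher in the E0 library with more Il1r2, and was low in E2 where Il1r2 was high. Ly6g, a neutrophil marker, was at 6.60 and 7.05 CPM in CN, 64.3 and 62.1 in E1, 4.83 and 5.97 CPM in E0, and 1.27 and 1.47 in E2. Retnlg of the list was at 1031 and 894 CPM in CN, 734 and 650 in E1, 1259 and 1068 CPM in E0, and 27.5 and 23.3 in E2. Cxcr2, a neutrophil chemokine receptor, was at 137 and 111 CPM in CN, 23.0 and 14.7 in E1, 115 and 165 CPM in E0, and 134 and 160 in E2. It was low in E1 and high in E2, as Il1r2 was. The part of these transcripts in the Il1r2 values was not tested.

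Monocytes and macrophages are known sources of IL-1 and its antagonist. Their list of 17 measured markers summed to 2939 to 3378 CPM in CN, 6848 to 7394 in E1, 2986 to 3283 in E0 and 3719 to 3858 in E2, with 9 at 10 CPM or more and none at 0 in every library. Adgre1 alone gave 1796 to 2883 CPM over the libraries, a large part of each sum. Ly6c2 gave 92.8 and 105 CPM in CN, and 4214 and 3784 in E1. The defining monocyte gene Cd14 was at 3.90 and 3.48 CPM in CN, 21.1 and 18.9 in E1, 3.89 and 5.98 CPM in E0, and 8.95 and 10.9 in E2. Basophils and mast cells, which carry ST2, had 10 of 12 markers measured, with sums of 112 to 120 CPM in CN, 139 to 145 in E1, 90.0 to 95.8 in E0 and 130 to 167 in E2. Gata2 (31.9 to 73.1 CPM) and Hdc (32.5 to 90.6 CPM) gave most of these sums. From E0 to E2, Mcpt8 went from 0.724 and 0.704 CPM to 2.43 and 2.66, and Cma1 from 0.644 and 0.692 to 6.36 and 6.88. Cd200r3 went from 3.72 and 3.08 CPM to 20.8 and 12.8, whereas Prss34 went from 1.51 and 1.32 to 0.985 and 0.977. The list for T cells and ILC2s, the latter also ST2-bearing, summed to 9.23 to 18.4 CPM over the libraries, with 7 of 13 markers measured; the preparation removed CD90-positive cells, which include these. The part of these cells in the ligand and receptor values was not tested.

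**Figure D3:**
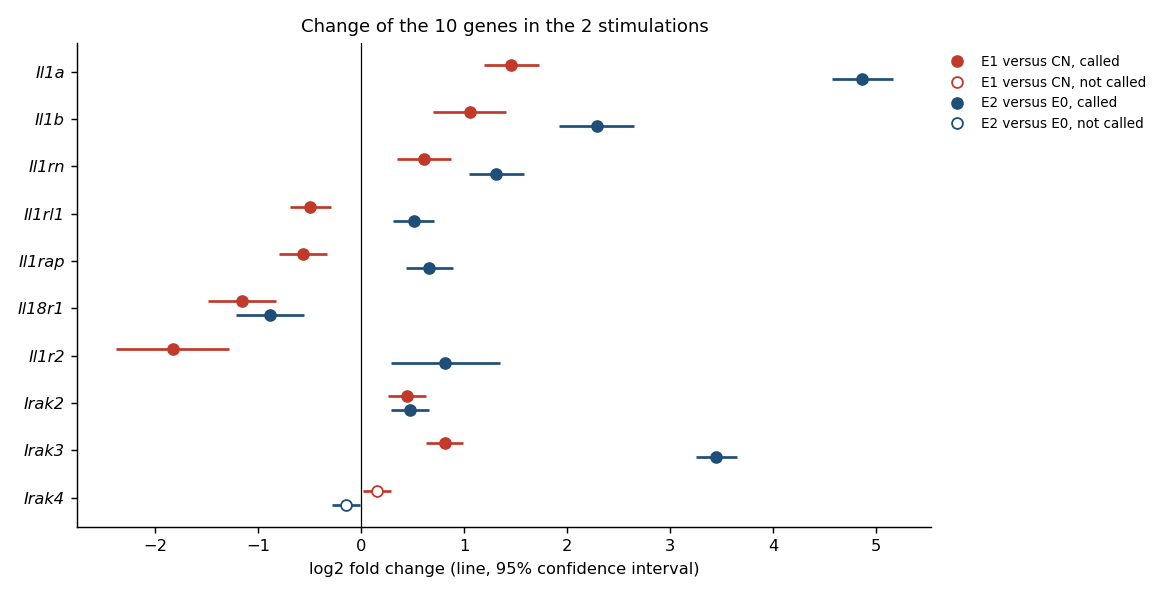
Log2 fold change (x axis) of each of the 10 genes (y axis) in E1 against CN (red) and E2 against E0 (blue), with lines for 95% confidence intervals not adjusted for the number of genes and open circles for changes not called. Il1rl1, Il1rap and Il1r2 lie left of 0 in red and right of 0 in blue.

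Among the kinase genes, Irak3 changed far more than the other 2. It (ENSMUSG00000020227) encodes IRAK-M and lies on chromosome 10 from 120141648 to 120202130 on the minus strand. It stood at 47.4 and 52.6 CPM in CN, 82.3 and 93.1 in E1, 45.2 and 45.0 CPM in E0, and 481 and 502 in E2. No groups overlapped, E2 was far above the rest, and E1 was next. The rise was 10.9-fold in E2 against E0 (log2 fold change 3.45 ± 0.09; adjusted p = 5.1e-07) and 1.75-fold in E1 against CN (0.81 ± 0.08; adjusted p = 0.000211). Tmbim4 overlaps Irak3 on the opposite strand and had log2 fold changes of 0.69 in E1 against CN and 0.46 in E2 against E0.

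The window before the second of 2 Irak3 start sites, chr10:120202131-120202380 on the minus strand (GRCm38.p6), is shown for comparison with Il1a, whose pattern over the libraries was the most similar to that of Irak3. It holds none of the motifs searched, so it has no capitals.
Irak3: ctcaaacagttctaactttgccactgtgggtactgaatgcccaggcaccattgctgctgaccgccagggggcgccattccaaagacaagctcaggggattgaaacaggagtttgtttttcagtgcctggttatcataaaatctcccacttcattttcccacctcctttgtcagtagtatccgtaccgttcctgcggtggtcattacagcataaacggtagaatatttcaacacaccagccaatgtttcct
Unlike the Il1a and Il1b windows above, this window and the other Irak3 window held no TATAAA.

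Irak2 (ENSMUSG00000060477), a kinase that acts with IRAK4 in the receptor complex, lies on chromosome 6 from 113638467 to 113695026 on the plus strand. It stood at 74.0 and 83.3 CPM in CN, 103 and 111 in E1, 69.1 and 73.2 CPM in E0, and 95.2 and 102 in E2. Both stimulated groups lay above both controls. The log2 fold changes were 0.45 ± 0.08 in E1 against CN (adjusted p = 0.00541) and 0.47 ± 0.08 in E2 against E0 (adjusted p = 0.00257). Irak4 (ENSMUSG00000059883), the kinase that starts the cascade, lies on chromosome 15 from 94543643 to 94581815 on the plus strand. Its levels were 84.1 and 80.3 CPM in CN, 93.2 and 89.4 in E1, 80.6 and 81.0 CPM in E0, and 74.6 and 71.6 in E2. The libraries of E1 lay above CN and those of E2 below E0 by small amounts, and neither change was called: 0.15 ± 0.06 (adjusted p = 0.131) and -0.14 ± 0.06 (adjusted p = 0.0945).

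Per length, Irak3 RNA was close to Irak2 RNA outside E2, with an Irak3 to Irak2 ratio of 0.769 and 0.758 in CN, 0.955 and 1.01 in E1, and 0.785 and 0.739 with IL-5 alone (E0). In E2 the ratio was 6.06 and 5.89. The Irak3 to Irak4 ratio was 0.769 and 0.894 in CN, 1.21 and 1.42 in E1, 0.766 and 0.759 with IL-5 alone (E0), and 8.80 and 9.59 in E2. RNA for the inhibitory family member therefore exceeded that of both kinases several-fold in E2. The Il1r2 to Il1rap ratio had means of 8.69 ± 0.43 in CN, 3.63 ± 0.45 in E1, 5.90 ± 2.28 in E0 and 6.52 ± 0.87 in E2 (SD, n = 2), so E1 was lowest and the E0 libraries, at 4.29 and 7.51, spanned those of E2. With the longest transcript as length these means were 4.65, 1.94, 3.16 and 3.49.

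Whether a gene responded differently to the 2 mixes was tested directly as the difference of the responses, (E2 - E0) - (E1 - CN), each taken within its own experiment. Of the 10 genes, 7 had a higher response in the second mix and 1 a lower response, against 11.3% and 14.0% of all tested genes. The median of the 10 differences was 1.12, beside -0.02 over all genes. The differences were 3.40 ± 0.16 for Il1a (adjusted p = 4.81e-06), 2.63 ± 0.11 for Irak3 (adjusted p = 2.57e-06) and 2.64 ± 0.33 for Il1r2 (adjusted p = 0.000818). For the receptor pair they were 1.00 ± 0.12 for Il1rl1 (adjusted p = 0.000767) and 1.23 ± 0.14 for Il1rap (adjusted p = 0.000541). These 2 genes encode the chains of the IL-33 receptor, and their RNA fell with the first mix while rising with the second. For Il1b the difference was 1.23 ± 0.21 (adjusted p = 0.00416).

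The difference for Il1rn, 0.70 ± 0.16 (adjusted p = 0.0143), lost its call without E0 replicate 1 (adjusted p = 0.056) or without E2 replicate 2 (adjusted p = 0.0566). Irak4 had a lower response in the second mix, -0.30 ± 0.08 (adjusted p = 0.035), but the call was lost when libraries were scaled by their totals alone (adjusted p = 0.113) and in 6 of the 8 fits that left out 1 library. Irak2 and Il18r1 had no called difference. The 95% confidence interval of the difference was -0.23 to 0.28 for Irak2 and -0.19 to 0.73 for Il18r1, on the log2 scale.

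Comparisons across the 2 experiments were also made, in which group and experiment cannot be told apart. In E0 against CN, IL-5 against no cytokine, 1 of the 10 genes was called higher and none lower by edgeR, against 13.5% and 11.9% of all genes. That gene was Il1b, with a log2 fold change of 0.87 ± 0.15 (adjusted p = 0.00494). At an unadjusted p below 0.05, 0 of the 10 were lower in edgeR, and DESeq2 called 0 lower. In E2 against E1, 7 were higher and Irak4 was lower, against 27.3% and 26.6% of all genes. The values of the 7 ranged from 0.85 for Il1rl1 to 3.23 for Il1a. Il18r1 and Irak2 were not called there, at -0.04 and -0.12, and both values changed sign when libraries were scaled by their totals alone.

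Of the 10 genes, 3 receptor genes sit in a run of 6 receptor genes of the family on chromosome 1, between 40074079 and 40551705, all on the plus strand: Il1r2, Il1r1, Il1rl2, Il1rl1, Il18r1 and Il18rap. This view was chosen after the values were seen. All 6 were called lower in E1 against CN, beside 8.08% of all tested genes. Their log2 fold changes along the chromosome were -1.83, -1.12, -1.14, -0.49, -1.15 and -0.92. With IL-5 alone (E0 against CN) Il1r1, Il1rl2 and Il18rap were also called lower (-1.09, -1.14 and -0.53). Il1r2, Il1rl1 and Il18r1 were not called there (-0.52, -0.15 and -0.31), and group and experiment cannot be told apart in that comparison. In E2 against E0 the run split: Il1r2 and Il1rl1 were higher (0.82 and 0.51), Il18r1 and Il18rap were lower (-0.88 and -0.48), and Il1r1 and Il1rl2 were not called (0.26 and -0.15). Il1r2 and Il1rl1 were thus higher while Il18r1, which begins just past the end of Il1rl1, was lower. Il1r1, the signalling IL-1 receptor, was near the lower end of detection, at 1.20 and 1.44 CPM in CN and 0.597 and 0.613 in E1. Its call in E1 against CN (adjusted p = 0.0169) was lost in 4 alternative fits, among them those without CN replicate 2 (adjusted p = 0.0944), E1 replicate 1 (0.0709) or E1 replicate 2 (0.0564). Gm16894 and Gm37347 overlap Il1r2, and Gm37347, on the same strand, had a log2 fold change of -2.48 in E1 against CN.

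**Figure D4:**
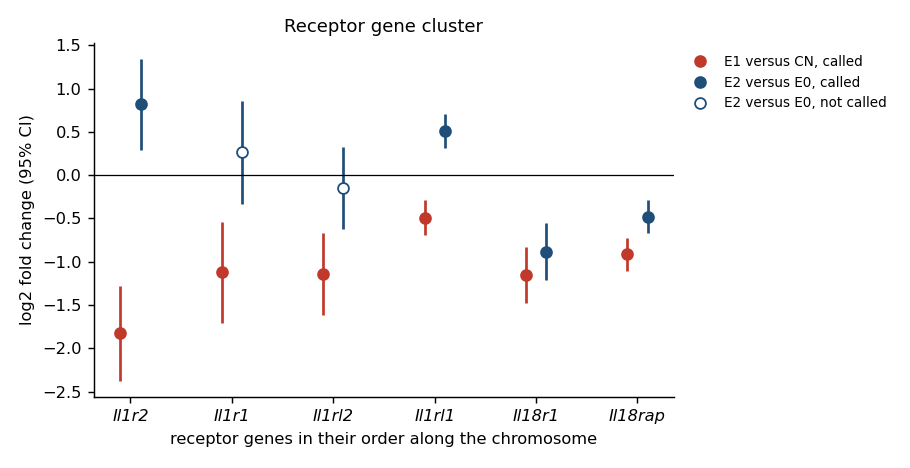
Log2 fold change (y axis, with 95% confidence intervals) of the 6 receptor genes in their order along chromosome 1 (x axis), in E1 against CN (red) and E2 against E0 (blue), with open circles for changes not called. All red points lie below 0, and the blue points run from 0.82 at Il1r2 to -0.88 at Il18r1.

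A list of 60 other genes of the pathway was examined for context, of which 50 had a row. In E1 against CN 15 were higher (30.0%), 6 were lower (12.0%) and 29 were not called, beside 9.19% higher and 8.08% lower over all genes. In E2 against E0 17 were higher (34.0%), 8 lower (16.0%) and 25 not called, beside 17.0% and 18.5%, so the lower share was below that over all genes. The median log2 fold change of the 50 was 0.13 in each comparison. In the difference of responses 14 were higher (28.0%) and 9 lower (18.0%), beside 11.3% and 14.0%. Il33 was not analysed here. Il18 was the other ligand gene with a row, named here after its values were seen: it was at 0.843 and 0.481 CPM in CN, 0.394 and 0.463 in E1, 0.531 and 0.788 CPM in E0, and 0.0352 and 0.141 in E2, the last from 3 and 11 counts. It was called lower in E2 against E0 and was below 1 CPM throughout.

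Of 5 other receptors and decoys measured, 1 was higher (20.0%) and 3 lower (60.0%) in E1 against CN, beside 9.19% and 8.08% of all tested genes. The gene that rose was Il18bp, whose secreted product binds and blocks IL-18, at 11.7 and 19.2 CPM in CN and 249 and 230 in E1 (log2 fold change 3.96 ± 0.21). It was at 8.63 and 8.60 CPM in E0 and 9.31 and 8.63 in E2, so it was low in the other 3 groups. Il18rap, the accessory chain of the IL-18 receptor, was at 194 and 225 CPM in CN and 110 and 113 in E1. Il18r1 and Il18rap, the 2 chains of the IL-18 receptor, thus fell in E1 in which the IL-18 antagonist gene rose. In E2 against E0 2 of the 5 were lower (40.0%) and none was higher, beside 18.5% and 17.0% of all tested genes. The 2 were Il18rap and Sigirr, a receptor that dampens IL-1 family signals (-0.89 ± 0.18). The count of higher genes was also 0 in edgeR at an unadjusted p below 0.05 and 0 in DESeq2. In E0 against CN, where group and experiment cannot be told apart, 4 of the 5 were lower (80.0%), beside 11.9%.

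Of 23 adaptors and kinases, 2 rose and 2 fell in E1 against CN (8.70% each), near the shares of 9.19% and 8.08% over all genes. In E2 against E0 6 rose (26.1%) and 4 fell (17.4%), beside 17.0% and 18.5%. Map3k8, the kinase also called TPL2, was at 3.25 and 4.48 CPM in E0 and 36.5 and 38.9 in E2 (3.28 ± 0.17). In E1 against CN Map3k8 had a log2 fold change of 0.64 ± 0.16 (adjusted p = 0.0305), a call lost without CN replicate 1 (0.129), CN replicate 2 (0.0793) or E1 replicate 2 (0.117). Peli2, a ubiquitin ligase of the receptor complex, fell from 22.0 and 21.4 CPM in E0 to 5.99 and 7.59 in E2 (-1.68 ± 0.21). Map2k6, a kinase upstream of p38, fell in both, by 1.45 in E1 against CN and by 1.08 in E2 against E0 on the log2 scale; the latter call was lost without E0 replicate 1 (adjusted p = 0.0667) or E2 replicate 2 (adjusted p = 0.0705).

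The adaptor genes nearest the receptor changed little by comparison. Myd88 was at 120 and 106 CPM in CN, 149 and 127 in E1, 84.6 and 91.6 CPM in E0, and 116 and 122 in E2. Its log2 fold change was 0.29 ± 0.10 in E1 against CN (adjusted p = 0.0741, not called by edgeR) and 0.43 ± 0.10 in E2 against E0 (adjusted p = 0.00952). The first was called by DESeq2 (adjusted p = 0.0387) and by edgeR when CN replicate 1 (0.0482) or E1 replicate 2 (0.0287) was left out. The second call was lost without E0 replicate 1 (adjusted p = 0.0657) or E2 replicate 2 (adjusted p = 0.0667). Irak1 fell by 0.24 in E2 against E0 (adjusted p = 0.0141), a call lost without E0 replicate 2 (adjusted p = 0.101) or E2 replicate 1 (adjusted p = 0.109). Traf6, the ubiquitin ligase downstream of the IRAKs, was not called in either comparison, at 0.14 in each.

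Among 10 genes listed as feedback inhibitors, 8 rose (80.0%) and none fell in E1 against CN, beside 9.19% and 8.08% of all tested genes. In E2 against E0 6 rose (60.0%) and 1 fell (10.0%), beside 17.0% and 18.5%. Dusp1 of this list was lower in E1 at an unadjusted p below 0.05 in edgeR, and DESeq2 called 1 lower. Nfkbia, Tnfaip3, Tnip1, Zc3h12a and Nfkbiz were called higher in both. The list was set by name, and whether each of its genes acts as a brake was not tested. Nfkbia, which encodes IκBα, was at 38.5 and 37.0 CPM in CN, 276 and 273 in E1, 32.6 and 40.7 CPM in E0, and 372 and 371 in E2. Tnfaip3, which encodes A20, had log2 fold changes of 0.65 ± 0.09 and 1.42 ± 0.09. Its partner Tnip1 had 0.71 ± 0.11 and 2.11 ± 0.11.

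Zc3h12a, which encodes the mRNA-degrading enzyme Regnase-1, was at 23.8 and 22.5 CPM in CN, 36.0 and 39.2 in E1, 20.1 and 18.4 CPM in E0, and 164 and 171 in E2. The atypical IκB gene Nfkbiz followed the same order, with 13.7 and 17.8 CPM in CN, 27.9 and 36.3 in E1, 12.4 and 14.2 CPM in E0, and 130 and 130 in E2. Both genes thus rose strongly in E2 and less in E1, with differences of responses of 2.42 ± 0.11 and 2.25 ± 0.22. Usp18 and Trim30a, which are interferon-inducible, rose in E1 against CN by 4.31 ± 0.22 and 3.09 ± 0.19 and were not called in E2 against E0 by edgeR (0.25 ± 0.20 and -0.44 ± 0.18). There Trim30a was called lower by DESeq2 (-0.43; adjusted p = 0.0412) and without E0 replicate 1 (-0.70; adjusted p = 0.0139). The feedback list therefore held genes that responded mainly to the first mix and genes that responded mainly to the second.

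Of 11 genes for ligand processing, 4 were higher (36.4%) and 1 lower (9.09%) in E1 against CN, beside 9.19% and 8.08% of all tested genes. In E2 against E0 5 were higher (45.5%) and none lower, beside 17.0% and 18.5%. Aim2 of this list was lower in E2 at an unadjusted p below 0.05 in edgeR, and DESeq2 called 0 lower. Casp1, the protease that cleaves pro-IL-1β, was at 14.2 and 15.7 CPM in CN, 127 and 104 in E1, 14.9 and 19.4 CPM in E0, and 22.6 and 29.7 in E2. Casp1 was thus high in E1, in which Il1b rose 2.08-fold, and far lower in E2, in which Il1b rose 4.88-fold; its difference of responses was -2.34 ± 0.25 (adjusted p = 0.000329). Its call in E2 against E0 (0.61 ± 0.17; adjusted p = 0.0262) was lost without E0 replicate 1 (adjusted p = 0.153) or E2 replicate 2 (adjusted p = 0.176). Casp4, the gene of mouse caspase-11, had log2 fold changes of 2.87 ± 0.20 in E1 against CN and 1.94 ± 0.20 in E2 against E0. Nlrc4, an inflammasome sensor, had 2.99 ± 0.31 and 2.63 ± 0.30, from a low base of 0.613 to 1.86 CPM in the controls.

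**Figure D5:**
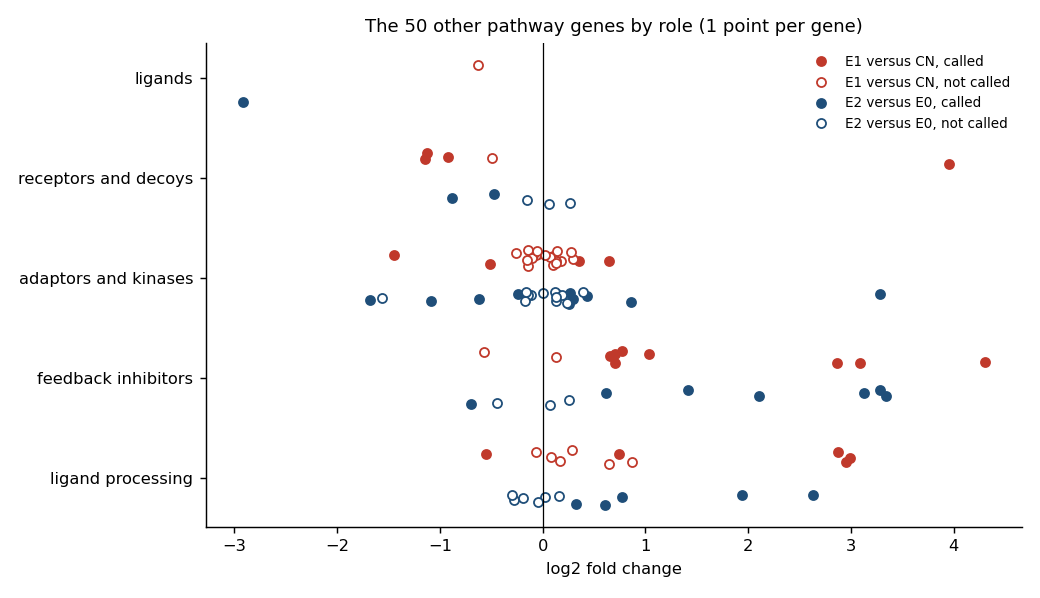
Log2 fold change (x axis) of the 50 other pathway genes with 1 point per gene, grouped by role (y axis), in E1 against CN (red) and E2 against E0 (blue), with open circles for changes not called. Of the 10 genes listed as feedback inhibitors 8 rose in E1 and 6 in E2, beside 9.19% and 17.0% of all tested genes. Most of the 23 adaptors and kinases lie close to 0.

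The genes whose levels tracked the 10 most closely were named by Pearson's correlation of log2(CPM + 0.5) over the 8 libraries, among 8331 genes. The libraries share groups and experiments, so these values are a description and carry no p. The gene most like Il1a was Irak3 (r = 0.999), and the next were Mllt6 and Zc3h12a (r = 0.997 each). Likewise the genes most like Irak3 were Il1a, Zc3h12a and Mllt6. Il1a and Irak3 had the same order of groups, E2, E1, CN, E0, on levels that differed, with E2 means of 167 TPM for Il1a and 420 TPM for Irak3.

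For Il1b the closest genes were Zc3h12c, St13 and Tmem38b, with r = 0.995 for Zc3h12c, a relative of Zc3h12a. For Il1rn they were Rad23b, Slc30a4 and Hsp90ab1, with r of 0.990 to 0.993. Il1rap was most like Rab8b, Nucb2 and Slc25a24 (r = 0.989, 0.989 and 0.988), and Il18r1 was most like Adam19, Nt5c2 and Nfatc1 (r = 0.979 to 0.981). Il1r2 was closest to Ppp1r3b (r = 0.992), Cd33 and Zfand5. Cd33, a sialic acid receptor, had means of 78.9 CPM in CN, 15.6 in E1, 52.5 in E0 and 82.3 in E2, the same order of groups as Il1r2. Il1rl1, Irak2 and Irak4 varied by less than 1 log2 unit over the group means, and no gene is named for them.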

How the data were processed

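Messenger RNA of 8 libraries of cultured mouse eosinophils (4 groups, 2 libraries each) was sequenced. The authors deposited raw read counts per Ensembl gene, and per the submitters' processing notes STAR and featureCounts were used with the mm10 build. The sources used here give no versions, counting annotation, strand setting or filter on low counts. Of 15918 rows, 1 without a name held the column sums (100% of the named counts) and was dropped.

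Symbols, positions and exon lengths came from GENCODE M21, which matched 15730 of 15917 genes. Counts were tested with edgeR 4.0.16 in R 4.3.3 (filterByExpr, TMM, quasi-likelihood F test, all 8 libraries in the fit with a mean for each group, residual degrees of freedom 4, two-sided, Benjamini-Hochberg over 15913 genes, call below 0.05). The 15913 tested genes left out 4, and the common biological coefficient of variation was 0.1474. Levels are CPM on TMM-scaled library sizes, and per-length levels (TPM) are counts per kilobase of all exons scaled to equal sums per library, for genes with a length. SE is the absolute log2 fold change over the square root of F. The calculation was tested on simulated counts.

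The 10 genes and all lists were chosen with earlier results of these data known. All 10 are named, as are other listed pathway genes called in either main comparison with an absolute log2 fold change of at least 1 and at least 1 CPM, and Il1r1, Il18rap, Myd88, Irak1 and Traf6 whatever their result. Il18, Sigirr, Dusp1, Aim2 and the single marker genes fall outside this rule and were named after their values were seen. For each of the 10 with a range of at least 1 log2 unit, the 3 genes with the highest correlation are named. Marker lists were eosinophil, neutrophil, monocyte and macrophage, basophil and mast cell, T cell and ILC2, B cell, NK cell, and platelet and erythroid. B cell markers summed to 132 to 272 CPM over the libraries, NK cell markers to 9.16 to 47.8 and platelet and erythroid markers to 204 to 268. Alternatives were RLE and total-count scaling, DESeq2 1.42.0, other count filters, fits on 4 libraries, a replicate block, leaving out each library, and the longest transcript as gene length. Promoter windows are from RefSeq (GRCm38.p6) and matched all 10 genes by symbol.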

Additional observations from a re-analysis of the deposited data

Results flagged for a closer look

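For 8 of the 10 genes the response to the E2 mix (against IL-5 alone) differed from that to the E1 mix (against no cytokine). This is by the edgeR test of the difference itself, which called 11.3% of all tested genes higher and 14.0% lower. The differences, second mix minus first on the log2 scale, were 3.40 for Il1a, 2.64 for Il1r2, 2.63 for Irak3, 1.23 for Il1b, 1.23 for Il1rap, 1.00 for Il1rl1, 0.70 for Il1rn and -0.30 for Irak4. Il1rl1, Il1rap and Il1r2 moved in opposite directions in the 2 mixes, whereas Il1a, Il1b, Il1rn and Irak3 rose in both and rose more in the second. The count was 6 to 8 when 1 library was left out and 7 with scaling by library totals alone. The Il1rn call was lost without E0 replicate 1 or E2 replicate 2, and the Irak4 call with totals alone and in 6 of the 8 fits without 1 library. The 2 responses were measured in separate experiments, so a difference between mixes and a difference between experiments cannot be told apart. Groups of 2 libraries are too small for a check of single outlying samples.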

How the results depend on the processing

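In E1 against CN all 9 calls among the 10 genes kept their direction and side of the threshold under every alternative run, and in E2 against E0 8 of 9 did, with Il1r2 the exception given above. With 2 libraries per group, leaving out a library left a group with 1, assumed to vary like the others. Replicate numbers are shared between groups, but the labels do not say what they pair. In every group Y-linked transcripts went with replicate 1 and Xist with replicate 2, so a block on the number also holds sex. Deviations of same-numbered libraries from their group means correlated at 0.576 between CN and E1 and at 0.534 between E0 and E2, and at -0.196 to -0.0256 across experiments. With the replicate number as a block the calls were 5520 in E1 against CN, 8514 in E2 against E0 and 6821 in the difference of responses, instead of 2749, 5655 and 4018, and 38 instead of 25 of the other pathway genes in E2 against E0. The block also called Irak4 in both main comparisons (adjusted p = 0.0314 and 0.0262). It further called Myd88 higher in E1 against CN (adjusted p = 0.0009), and Usp18 higher (adjusted p = 0.0227) and Trim30a lower (adjusted p = 0.00335) in E2 against E0, and it changed no other call of the genes named by the rule in these 2 comparisons.

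Leaving out 1 library gave 3334 to 3984 calls in E2 against E0 and 2235 to 2988 instead of 4038 in E0 against CN, with 1 to 3 of the 10 genes called in the latter. Other pathway genes called then numbered 16 to 23 instead of 25 in E2 against E0 and 14 to 19 instead of 23 in the difference of responses. The cause of these moves was not tested, apart from the fewer libraries. Scaling by library totals alone took the share of called genes that were higher from 53.2% to 38.6% in E1 against CN, from 53.0% to 66.8% in E0 against CN and from 50.6% to 63.6% in E2 against E1. In the last it moved the median of all genes from 0.02 to 0.16.

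Directions that reversed belonged to changes that were not called. Leaving out 1 library gave -0.062 to 0.093 for Irak2 in the difference of responses, -0.38 to 0.15 for Peli2 in E1 against CN and -0.029 to 0.49 for Usp18 in E2 against E0. It gave -0.015 to 0.10 for Il1rap and -0.058 to 0.0049 for Irak4 in E0 against CN, and -0.12 to 0.043 for Il18r1 in E2 against E1. Totals alone gave 0.039 for Irak4 in E0 against CN, and 0.10 for Il18r1 and 0.024 for Irak2 in E2 against E1.

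With the longest transcript as length, the mean level over the 8 libraries became 38.7 TPM for Il1a, 236 for Il1b, 526 for Il1rn, 297 for Il1rl1, 6.77 for Il1rap, 66.0 for Irak2, 133 for Irak3 and 56.5 for Irak4, against 48.5, 209.7, 303, 285, 3.36, 59.6, 141 and 48.3 with all exons. The E2 ratios became 1.58 for Il1rn to Il1b, 7.36 for Il1rn to Il1a, 3.49 for Il1r2 to Il1rap, 5.14 for Irak3 to Irak2 and 7.47 for Irak3 to Irak4. The change of length explains these by construction. Depth limits Il1r1 the most among the receptors, with 36 to 120 counts per library.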
